A study of Mus musculus with 6 samples.

Results

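The miR-29 family was followed through its 3 probes for mmu-miR-29a, mmu-miR-29b and mmu-miR-29c, the non-control probes whose description on the array names one of these microRNAs. They are 3 of 334 mouse microRNA probes on the array, and all 3 passed the filter on dim probes, which 294 of the 334 passed. The probes were picked by name and by no measured value, but the family was chosen with earlier results of these data known.

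The RNA came from day 7 mouse embryoid bodies, floating clumps of embryonic stem cells that have begun to differentiate, and the arrays read mature microRNAs. The stem cells were of strain 129S7/SvEv Brd-Hprt b-m2 and carried human BRCA1, the DNA repair protein whose loss predisposes to breast and ovarian cancer. Per the labels, the RQ group carried BRCA1 with the missense change R1699Q, the MI group carried BRCA1 with M1652I, and the WT group carried wild-type human BRCA1; each group had 2 biological replicates on 1 array each, 6 arrays in all. Every array had 2 colours, with the group's own RNA in Cy3 and RNA labelled as that of wild-type embryoid bodies in Cy5, and no dye swap. The feeder cells on which stem cells grow had been left behind on gelatin first, per the labels, and the state of the mouse Brca1 gene is not stated there. The labels do not say whether replicates came from separate cultures or how many stem cell clones stand behind a group, so p-values measure only the spread between these arrays, which may be technical. An embryoid body also holds many cell types, and fewer cells of a type and less of a microRNA per cell cannot be told apart in its bulk RNA.

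MicroRNAs pair through their seed, the bases near their 5′ end, with target messenger RNAs and lower the protein made from them. The miR-29 family is known for repressing messenger RNAs of the extracellular matrix, such as collagens and elastin, and of the DNA methyltransferases Dnmt3a and Dnmt3b. Its members are low in pluripotent stem cells, are higher in many differentiated tissues and in fibroblasts, and are among the microRNAs that the transcription factor Myc represses in lymphoma cells of humans and mice.

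The 3 mature sequences are shown because the 3 probes have to tell them apart. They are the 3′ arm products in RefSeq (GRCm38.p6), 5′ to 3′, with the seed (bases 2 to 8) in capitals.
miR-29a: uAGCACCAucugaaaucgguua
miR-29b: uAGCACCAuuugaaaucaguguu
miR-29c: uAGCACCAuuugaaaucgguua
All 3 share the seed AGCACCA. Counted from 1 at the 5′ end, miR-29a and miR-29c differ by 1 base of 22, written C10U from miR-29a to miR-29c. From miR-29a to miR-29b there are 4 differences over the first 22 bases (C10U, G18A, U21G and A22U), and miR-29b is 1 base longer. miR-29b is the member that ends in AGUGUU, a stretch known from human cells to direct it to the nucleus.

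RefSeq (GRCm38.p6) places the family at 2 loci. Mir29a lies at chr6:31062660-31062747 and Mir29b-1 at chr6:31063023-31063093, both on the minus strand with 275 bases between them. Mir29b-2 lies at chr1:195037040-195037120 and Mir29c at chr1:195037547-195037634, both on the plus strand with 426 bases between them. Mature miR-29b is the same from Mir29b-1 and Mir29b-2, so its signal sums both loci, whereas miR-29a comes from the chromosome 6 locus and miR-29c from the chromosome 1 locus.

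The array carries 60-base probes, each a complement of the microRNA followed by a shared stem, and the complement is in capitals.
miR-29a probe: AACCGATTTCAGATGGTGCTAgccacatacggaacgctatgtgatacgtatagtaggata
miR-29b probe: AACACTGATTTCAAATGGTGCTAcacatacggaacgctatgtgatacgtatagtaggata
miR-29c probe: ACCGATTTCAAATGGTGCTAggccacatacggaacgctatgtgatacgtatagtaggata
The complement covers bases 1 to 21 of miR-29a, all 23 bases of miR-29b and bases 1 to 20 of miR-29c. The seed's complement, TGGTGCT, was searched on the probe strand of all 334 mouse probes and was found in 3 (0.898%), those of the family. The miR-29a and miR-29c probes differ within the complement only at base 10 and by the 1 base that the longer one adds at its 5′ end. How far each of the 3 probes also binds the other members was not tested, so the values below are those of probes and not of strictly separate molecules.

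Each probe had 4 spots per array. All 72 spots of the family were well above background in both dyes and none was saturated; 7 were marked as outliers by the scanner software and left out. The remaining spots of a probe agreed on an array with a coefficient of variation of 0.659% to 12.6% in Cy3 and 0.858% to 14.7% in Cy5.

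Across the series, 241 to 255 of 334 mouse probes per array had most of their spots well above background in Cy3 and 262 to 271 in Cy5, and replicate arrays correlated over probes at r = 0.987 to 0.994. The median net Cy3 of the tested probes was 298 and 296 on the RQ arrays, 177 and 223 on the MI arrays and 245 and 192 on the WT arrays. All arrays came from 1 slide and 1 scan, with the RQ and MI arrays in slide row 2 and the WT arrays in row 1, so slide row and the difference from WT cannot be told apart. The 2 channels held unlike RNA even on the WT arrays, which are labelled wild type in both. The 10 stem-cell microRNAs on the array (the miR-290 and miR-302 clusters) made up 11.9% to 18.5% of the summed net Cy3 signal over arrays and 0.0456% to 0.0787% of Cy5, where 2 to 5 of the 10 were above background. The 4 blood microRNAs made up 0.194% to 0.227% of Cy3 and 17.2% to 21.1% of Cy5.

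The miR-29 probes were brighter in Cy5 than in Cy3 on all 6 arrays. The miR-29a probe, from the chromosome 6 locus, had a mean net Cy3 intensity of 634 and 621 on the RQ arrays, 397 and 455 on the MI arrays, and 752 and 658 on the WT arrays. Both MI arrays lay below the other 4, and both RQ arrays lay just below the WT arrays. Its net Cy5 intensity was 4536 and 4427 on the RQ arrays, 4971 and 4903 on the MI arrays, and 5810 and 5500 on the WT arrays. The reference channel thus ran in the order RQ, MI, WT.

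The miR-29b probe, which sums both loci, had a mean net Cy3 intensity of 1200 and 1201 on the RQ arrays, 970 and 1054 on the MI arrays, and 1326 and 1422 on the WT arrays. MI was lowest and WT highest. Its net Cy5 intensity was 7324 and 7028 on the RQ arrays, 8685 and 8314 on the MI arrays, and 10420 and 9206 on the WT arrays, again in the order RQ, MI, WT.

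The miR-29c probe, from the chromosome 1 locus, was the dimmest spot set of the family in both dyes, which says nothing of amounts because probes differ in brightness. Its mean net Cy3 intensity was 308 and 293 on the RQ arrays, 270 and 333 on the MI arrays, and 249 and 288 on the WT arrays. The RQ pair lay above the WT pair by less than the range of either, and the MI pair overlapped both. Its net Cy5 intensity was 1535 and 1463 on the RQ arrays, 1437 and 1654 on the MI arrays, and 1803 and 1755 on the WT arrays.

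These net intensities carry each array's overall brightness. The mean net Cy3 of the RQ arrays over that of the WT arrays was 0.891 for miR-29a, 0.873 for miR-29b and 1.12 for miR-29c, whereas the median tested probe stood at 1.43. In this paragraph the median is over tested probes with a mean net signal above 20 in both groups. It includes outlier spots, which the member values leave out. For MI over WT the same ratio was 0.605 for miR-29a, 0.737 for miR-29b and 1.13 for miR-29c, against 1.05 for the median tested probe. In Cy5, RQ over WT was 0.793, 0.731 and 0.843 for miR-29a, miR-29b and miR-29c, against 0.844 for the median probe. MI over WT in Cy5 was 0.873, 0.866 and 0.869, against 0.907 for the median probe, so the median probe ran in the same order. The share of all tested probes whose groups lie apart in net intensity was not counted.

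**Figure D1:**
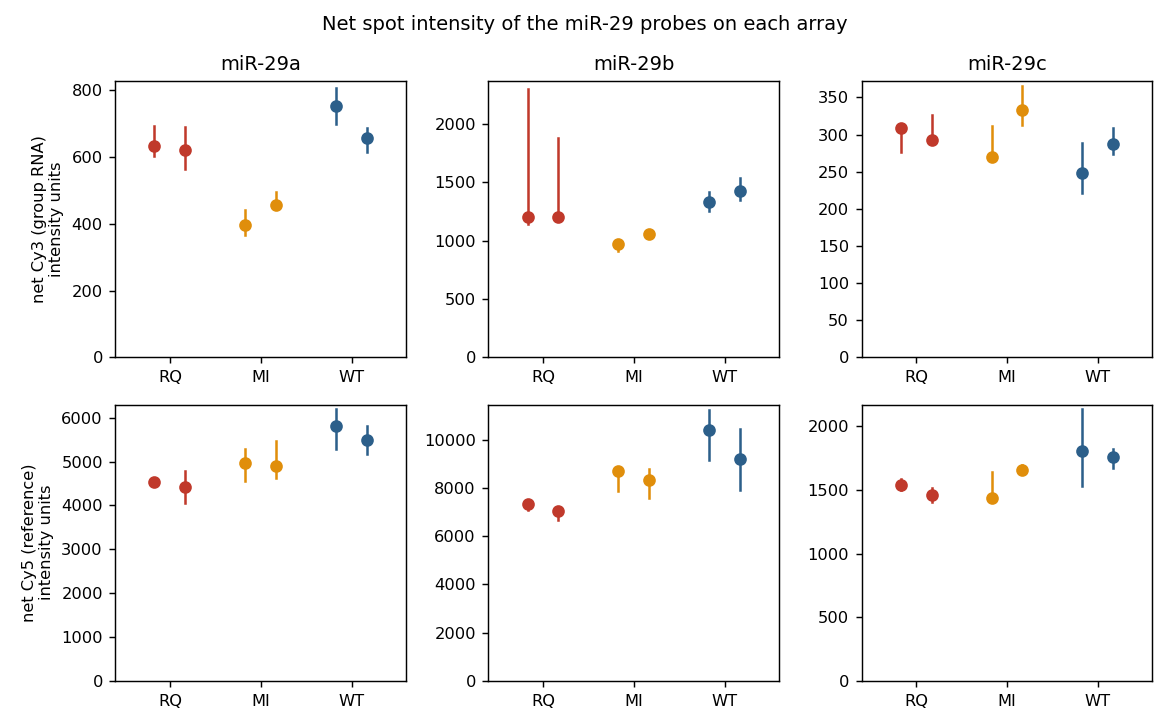
Net intensity (mean spot signal minus local background, linear scale) of the miR-29a, miR-29b and miR-29c probes in Cy3, the group's own RNA (top), and Cy5, the reference (bottom), for the RQ, MI and WT arrays. Each point is the mean of an array's spots without outliers and each line runs over all 4 spots, outliers included; in Cy3 the MI arrays were lowest for miR-29a (397 and 455) and for miR-29b (970 and 1054).

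For the comparison of groups, each spot's Cy3 over Cy5 was normalised within its array by loess, a curve that follows the ratio along the intensity range, and taken as log2. In RQ embryoid bodies miR-29a fell relative to WT embryoid bodies. Its log2 ratio was -3.07 and -2.80 on the RQ arrays, against -1.98 and -1.47 on the WT arrays. The change was -1.21 ± 0.24 (log2, SE), a fold of 0.433, with a 95% interval of -1.80 to -0.61 and an adjusted p of 0.0197 in limma. It was called, as a microRNA was at an adjusted p under 0.05.

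miR-29b had log2 ratios of -3.38 and -3.21 on the RQ arrays, against -2.74 and -2.24 on the WT arrays. The pairs did not overlap, and the change of -0.81 ± 0.28 (adjusted p = 0.0900) missed the threshold. miR-29c had -2.34 and -2.13 on the RQ arrays, against -2.48 and -1.76 on the WT arrays, whose range enclosed the RQ values. Its change was -0.12 ± 0.25 (adjusted p = 0.754), with an interval of -0.73 to 0.50. So 1 of the 3 members was called lower in RQ, where 13.9% of the 294 tested probes were called lower and 21.4% were called in either direction. For 2 of the 3 the RQ arrays lay wholly below the WT arrays, as for 29.6% of tested probes.

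The size of these changes depended on how the dyes were balanced. With each array's log2 ratios only centred on their median, miR-29a was at -3.29 and -3.31 on the RQ arrays, against -3.20 and -3.15 on the WT arrays. The order was the same, but the change was -0.12 ± 0.10 (adjusted p = 0.373) and was not called. On this scale 0 of the 3 members were called in limma, nor was any under an unadjusted p of 0.05, while 22.8% of tested probes were called. miR-29b stood at -3.07 and -3.03 on the RQ arrays, inside the -3.24 and -2.81 of the WT arrays, a change of -0.02 ± 0.15. miR-29c stood at -2.75 and -2.78 on the RQ arrays, inside the -3.01 and -2.63 of the WT arrays, a change of 0.05 ± 0.14.

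The 2 scales part at the loess curve itself. At miR-29a's intensity the curve stood at 0.26 and -0.01 on the RQ arrays, against -0.92 and -1.53 on the WT arrays. At miR-29b's intensity it stood at 0.79 and 0.67 on the RQ arrays, against -0.20 and -0.42 on the WT arrays. Before the curve was taken off, the miR-29a ratio was -2.81 and -2.82 on the RQ arrays, against -2.90 and -3.00 on the WT arrays. The order before correction was thus the opposite of that after it, with RQ slightly above WT.

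**Figure D2:**
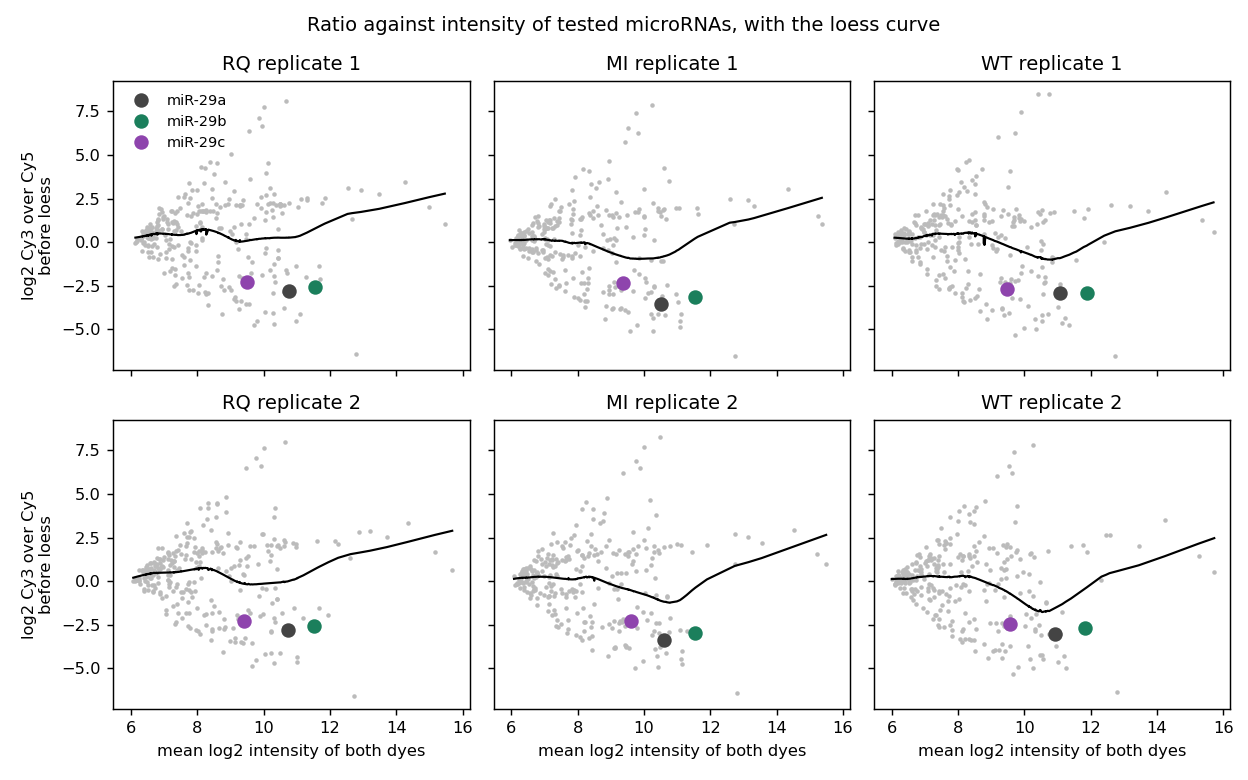
Log2 Cy3 over Cy5 before loess (y axis) against the mean log2 intensity of both dyes (x axis) for the tested mouse probes on each array (grey points), with the loess curve (black line) and the 3 miR-29 probes in colour. At miR-29a the curve stood at 0.26 and -0.01 on the RQ arrays, against -0.92 and -1.53 on the WT arrays.

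Cy3 taken alone leaves out the reference channel. It was scaled as log2 Cy3 minus each array's 75th percentile over probes above background on all arrays. On that scale miR-29a was at -1.07 and -0.84 on the RQ arrays, against -0.42 and -0.27 on the WT arrays. It fell by 0.61 ± 0.22 (log2, SE, adjusted p = 0.0218). miR-29b was at -0.17 and 0.10 on the RQ arrays, against 0.37 and 0.80 on the WT arrays, and fell by 0.62 ± 0.22 (adjusted p = 0.0196). miR-29c was at -2.06 and -1.88 on the RQ arrays, against -1.89 and -1.36 on the WT arrays, a change of -0.34 ± 0.22 (adjusted p = 0.216). Here 2 of 3 members were called lower, with 18.4% of tested probes called lower and a median change of -0.23 over all tested probes. The SEs of the 3 members were nearly equal on this scale (0.2155, 0.216 and 0.2161). The limma test thus leaned on a spread shared over all tested probes, more than with loess, and less on each probe's own arrays.

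In the deposited value table, whose log ratios the scanner software had normalised, RQ minus WT was -0.70 for miR-29a (adjusted p = 0.0532), -0.51 for miR-29b (adjusted p = 0.0931) and -0.58 for miR-29c (adjusted p = 0.0703). None was called, where 19% of tested probes were, and the median of all tested probes was -0.26. With loess drawn through bright probes only, miR-29a was at -1.29 ± 0.24 (adjusted p = 0.0248), called as 11.2% of tested probes were called lower there, and miR-29b at -0.39 ± 0.26. Over these 5 scalings miR-29a was lower in RQ in 5 and called in 3, miR-29b lower in 5 and called in 1, and miR-29c lower in 3 and higher in 2 with no call. The Cy3-alone calls in these counts rest on the spread shared over probes. The miR-29a call with loess was also lost without WT replicate 2 (-0.96, adjusted p = 0.0539), without RQ replicate 1 (-1.08, adjusted p = 0.137) and without RQ replicate 2 (-1.34, adjusted p = 0.0558).

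The reference channel was put through the same scaling and test, since its RNA is labelled the same on every array. None of the 3 members was called in any of the 3 comparisons there by limma, and the changes lay between -0.23 and 0.03. Under an unadjusted p of 0.05 were miR-29a (-0.12) and miR-29b (-0.23) in RQ minus WT, and miR-29b (-0.17) in RQ minus MI. Of all tested probes, 11.6% were called in Cy5 in RQ minus WT.

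**Figure D3:**
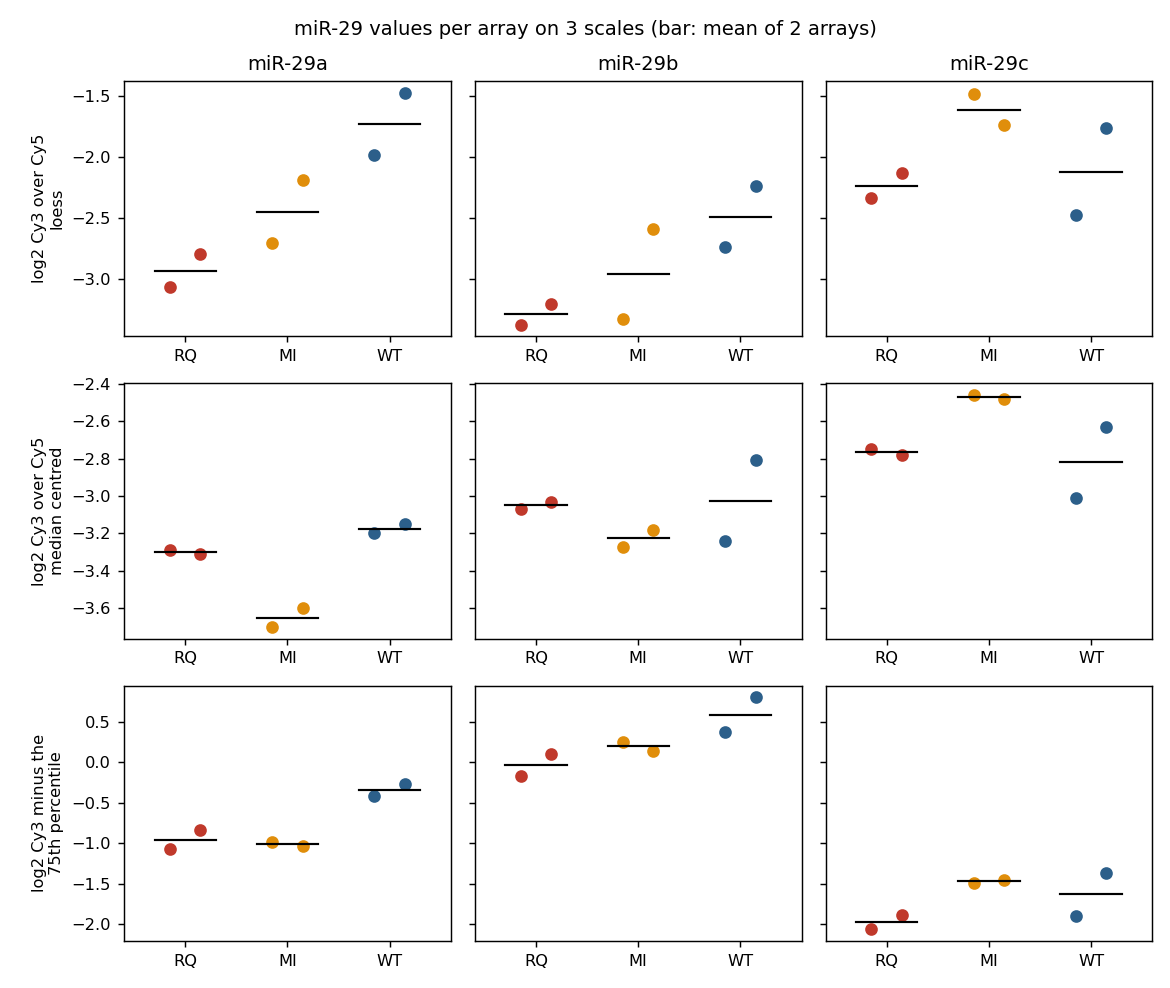
Log2 values of the 3 miR-29 probes on the RQ, MI and WT arrays (points, 1 per array; bar, mean of 2 arrays) as loess ratios (top), median-centred ratios (middle) and Cy3 alone relative to the 75th percentile (bottom), each row on its own axis. For miR-29a the RQ points lay below the WT points on all 3 scales, by 1.21, 0.12 and 0.61 in the mean.

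In MI embryoid bodies no member was called against WT embryoid bodies with loess, and the signs were not shared: miR-29a and miR-29b were below 0 and miR-29c above it. With loess, miR-29a had log2 ratios of -2.71 and -2.19 on the MI arrays, against -1.98 and -1.47 on the WT arrays. The pairs did not overlap, and the change was -0.72 ± 0.24 (adjusted p = 0.0946), which missed the threshold. miR-29b had -3.33 and -2.59 on the MI arrays, against -2.74 and -2.24 on the WT arrays, overlapping, with a change of -0.47 ± 0.28 (adjusted p = 0.262). miR-29c had -1.48 and -1.74 on the MI arrays, against -2.48 and -1.76 on the WT arrays. Its MI values lay above both WT values, by 0.02 at the nearest, and the change was 0.51 ± 0.25 (adjusted p = 0.197). None of the 3 was called with loess in limma, where 15.6% of tested probes were; 1 of the 3, miR-29a, was under an unadjusted p of 0.05. The MI arrays lay wholly below the WT arrays for 22.8% of tested probes, as for miR-29a, and wholly above them for 45.6%, as for miR-29c.

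With median centring miR-29a fell in MI. It was at -3.70 and -3.60 on the MI arrays, against -3.20 and -3.15 on the WT arrays, and the change was -0.48 ± 0.10 (adjusted p = 0.0179). That is 1 of 3 members called lower, with 7.14% of tested probes called lower on that scale. miR-29b was at -3.27 and -3.18 on the MI arrays, against -3.24 and -2.81 on the WT arrays, a change of -0.20 ± 0.15 (adjusted p = 0.359). miR-29c was at -2.46 and -2.48 on the MI arrays, above the -3.01 and -2.63 of the WT arrays, a change of 0.35 ± 0.14 (adjusted p = 0.124).

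Cy3 alone gave -0.98 and -1.03 for miR-29a on the MI arrays, against -0.42 and -0.27 on the WT arrays, and it fell by 0.66 ± 0.22 (adjusted p = 0.0153). On this scale 9.86% of tested probes were called lower, and neither miR-29b (-0.39, adjusted p = 0.234) nor miR-29c (0.16, adjusted p = 0.733) was called. The limma test with Cy3 alone again leaned on the spread shared over probes. In the deposited value table the changes were -0.60 for miR-29a (adjusted p = 0.103), -0.33 for miR-29b and 0.19 for miR-29c. Over the 5 scalings miR-29a was lower in MI in 5 and called in 2, between -1.02 and -0.48. miR-29c was higher in 5 and called in 0, between 0.16 and 0.51; without WT replicate 2 its loess change was 0.88 and was called (adjusted p = 0.0285).

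RQ was also set against MI, within slide row 2. With loess, miR-29c was lower in RQ, at -2.34 and -2.13 on the RQ arrays, against -1.48 and -1.74 on the MI arrays. Its change was -0.63 ± 0.25 (adjusted p = 0.177), not called. It was called in a limma fit on these 4 arrays alone (-0.63, adjusted p = 0.0410). Leaving out either WT array only repeats that fit, since the WT array that is left adds no spread. The WT arrays together lend the 6-array fit their wider spread.

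miR-29a differed by -0.48 ± 0.24 (adjusted p = 0.25) and miR-29b by -0.34 ± 0.28 (adjusted p = 0.477) in RQ minus MI with loess. Both signs turned with median centring, to 0.35 for miR-29a (adjusted p = 0.0617) and 0.17 for miR-29b (adjusted p = 0.505), and that of miR-29a also with Cy3 alone, to 0.05. None of the 3 members was called here with loess in limma, against 10.9% of tested probes, and 1 of them, miR-29c, was under an unadjusted p of 0.05. The miR-29c difference kept its sign over all 5 scalings, from -0.76 to -0.29, and its groups did not overlap on any of them, as was so downward for 44.9% of tested probes with loess. For miR-29c the groups thus ran in the order MI, WT, RQ in the loess means, with neither neighbouring pair called; for miR-29a and miR-29b they ran WT, MI, RQ with neither neighbouring pair called.

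**Figure D4:**
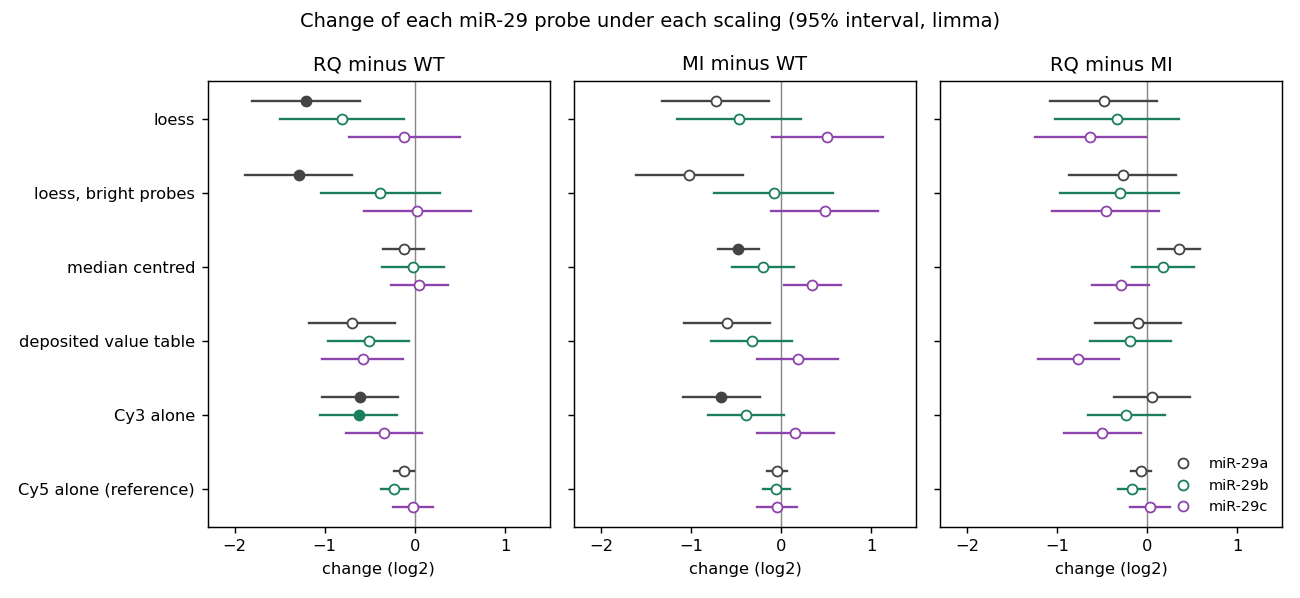
Change in log2 of miR-29a, miR-29b and miR-29c with its 95% interval in limma (x axis) under 5 scalings and in the Cy5 reference channel (rows), for RQ minus WT, MI minus WT and RQ minus MI; filled points are called at an adjusted p under 0.05. miR-29a was below 0 under all 5 scalings against WT in both mutants, and no point in the Cy5 row was called.

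The difference between 2 members on the same array leaves out any shift that an array applies equally to both. For miR-29a minus miR-29c with median centring it was -1.25 and -1.11 on the MI arrays, against -0.19 and -0.52 on the WT arrays. The mean was -1.18 ± 0.09 in MI and -0.36 ± 0.23 in WT (SD, n = 2 arrays each), a difference of -0.82. An exact two-sided permutation test gave p = 0.333, the smallest that 2 arrays against 2 allow. The same difference was -1.24 with loess, -0.82 with Cy3 alone and -0.78 in the deposited value table, with no overlap on any of these scales. These scales rework the same arrays and are not separate evidence. How often other pairs of probes lie apart like this was not counted, here or for the differences below. For single probes with loess, the MI arrays lay wholly below the WT arrays in 22.8% and wholly above in 45.6%.

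Between miR-29b and miR-29c the same contrast was smaller. miR-29b minus miR-29c was -0.81 and -0.70 on the MI arrays, against -0.24 and -0.18 on the WT arrays, with median centring. It differed by -0.54 between MI and WT, by -0.98 with loess, by -0.55 with Cy3 alone and by -0.51 in the deposited table. miR-29a minus miR-29b also differed between MI and WT without overlap on these 4 scales, by -0.28 with median centring, -0.26 with loess, -0.27 with Cy3 alone and -0.27 in the deposited table. Each of these exact tests gave p = 0.333.

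In RQ the same within-array differences depended on the scale. miR-29a minus miR-29c was -0.54 and -0.52 on the RQ arrays, against -0.19 and -0.52 on the WT arrays with median centring, a difference of -0.17. With loess it was -1.09, with Cy3 alone -0.27 and in the deposited table -0.12, where the arrays overlapped. Against MI, the median-centred miR-29a minus miR-29c was 0.65 higher in RQ, and its 2 RQ arrays did not overlap the MI arrays (exact p = 0.333). That difference was 0.55 with Cy3 alone and 0.66 in the deposited table, without overlap, and 0.15 with loess, where the arrays overlapped.

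**Figure D5:**
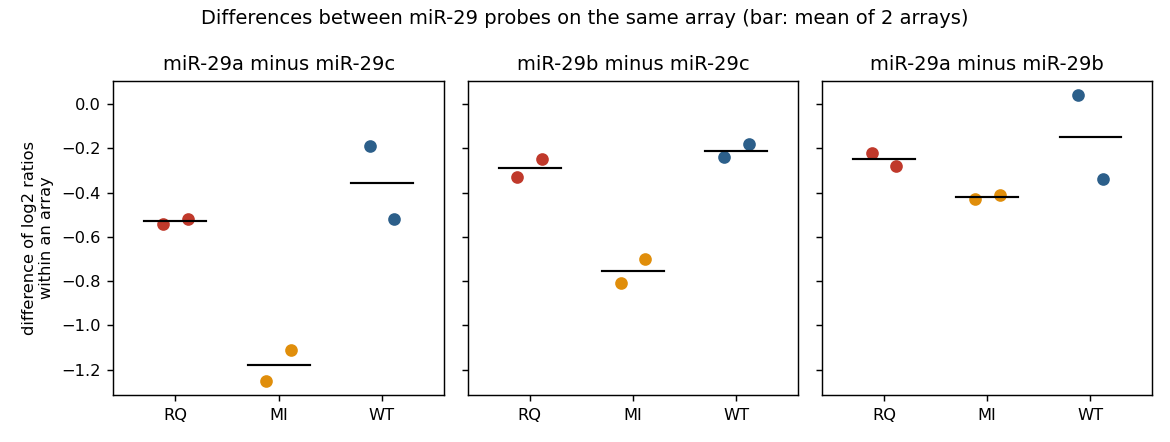
Difference of median-centred log2 ratios between pairs of miR-29 probes on the same array (y axis) for the RQ, MI and WT arrays (points, 1 per array; bar, mean of 2 arrays). miR-29a minus miR-29c lay at -1.25 and -1.11 on the MI arrays, below the other 4 arrays, and miR-29b minus miR-29c at -0.81 and -0.70.

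Among the 291 other tested microRNAs, those nearest to the family in profile were found by centring each microRNA's loess log2 ratio on its own mean over the 6 arrays. The root mean square difference from the mean profile of the 3 members was 0.07 for miR-19b, a growth-promoting microRNA made with miR-17 and miR-18. It was 0.12 for miR-30c, 0.15 for miR-124a of neurons and 0.15 for miR-1 of muscle, and the median of all was 0.40. The members themselves lay at 0.24 for miR-29a, 0.16 for miR-29b and 0.36 for miR-29c from their own mean, so at least 4 other microRNAs were nearer to it than any member. These profiles share arrays and the loess curve, and with 6 arrays the likeness is a description.

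Of these 4, miR-30c fell in RQ relative to WT with loess, with mean log2 ratios of -2.10 in RQ and -1.18 in WT (-0.92 ± 0.16, adjusted p = 0.0120). miR-1 also fell, with means of -4.78 in RQ and -3.75 in WT (-1.03 ± 0.27, adjusted p = 0.0471). miR-19b at -0.67 ± 0.23 (adjusted p = 0.0900) and miR-124a at -0.54 ± 0.29 (adjusted p = 0.245) were not called. With median centring all 4 were above 0 in RQ minus WT, at 0.43 for miR-19b, 0.23 for miR-30c, 0.02 for miR-1 and 0.77 for miR-124a, which was called (adjusted p = 0.00596).

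Other microRNAs tied to the family's known biology were counted from lists. Of 15 tested microRNAs known to be repressed by Myc, as miR-29 is, 6 fell, 1 rose and 8 were not called in RQ minus WT with loess, with a median of -0.66 against 0.03 over all tested probes, of which 13.9% were called lower and 21.4% in either direction. With Cy3 alone 5 of the 15 were called lower and 1 higher, with a median of -0.34 against -0.23 over all tested probes, of which 18.4% were called lower. The other microRNAs called, named after their values were seen, were let-7a (-1.02), let-7f (-0.92), let-7g (-0.85) and miR-30c (-0.92) among the falls and miR-150 (0.76), a lymphocyte microRNA, as the rise. miR-26a had mean log2 ratios of -1.97 in RQ and -0.56 in WT (-1.41 ± 0.13, adjusted p = 0.00808). miR-16, which restrains the cell cycle, had -1.64 in RQ and -0.47 in WT (-1.17 ± 0.25, adjusted p = 0.0241). As for miR-29a, the median-centred values differed: 0 of the 15 were called lower and 2 higher (let-7c and miR-150), with a median of 0.12, and miR-26a stood at -0.42 (adjusted p = 0.127). On that scale 22.8% of tested probes were called in either direction. In MI minus WT with loess, 1 of the 15 fell, miR-26a at -1.38 ± 0.13 (adjusted p = 0.00375), and none rose, with a median of -0.23. Of all tested probes, 15.6% were called there in either direction, with a median of 0.11. With median centring 3 of the 15 fell in MI, miR-26a (-0.90), miR-16 (-0.84) and miR-15a (-0.46), and let-7g rose by 0.46. The list median was 0.07 against 0.08 over all tested probes, of which 7.14% were called lower.

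miR-148a, miR-148b, miR-152 and miR-143 are, like miR-29, known to act on DNA methyltransferase messenger RNAs. Of these 4 tested, miR-148b fell in RQ with loess, with means of -1.40 in RQ and -0.60 in WT (-0.80 ± 0.12, adjusted p = 0.00991), and miR-148a at -0.80 ± 0.26 (adjusted p = 0.0798) was not called. Of all tested probes, 13.9% were called lower there. miR-148b also fell with median centring (-0.96, adjusted p = 0.000927), with miR-152 (-0.47, adjusted p = 0.0364), where miR-29a was not called. On that scale 22.8% of tested probes were called, 20 of the 294 lower and 47 higher. With Cy3 alone 3 of the 4 were called lower, where 18.4% of tested probes were. The list median was then -0.92, against -0.23 over all tested probes. In MI minus WT 0 of the 4 were called with loess in limma, where 15.6% of tested probes were, and miR-148b stood at 0.02.

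Mesenchymal cells such as fibroblasts make much miR-29, so their other microRNAs were set beside it. Of 6 tested, miR-21 and miR-145 fell and 4 were not called in RQ minus WT with loess, where 13.9% of all tested probes were called lower, and the list median was 0.05. In MI minus WT 1 of the 6, miR-214, rose with loess (0.72 ± 0.12, adjusted p = 0.0137), where 15.6% of tested probes were called, and it was not called with median centring. miR-21, abundant in fibroblasts, had means of -2.73 in RQ and -1.38 in WT (-1.35 ± 0.22, adjusted p = 0.0112). miR-145, a microRNA of smooth muscle, had -4.78 in RQ and -4.10 in WT (-0.68 ± 0.18, adjusted p = 0.0472). With median centring neither was called in RQ minus WT, at -0.19 for miR-21 and -0.16 for miR-145, whereas miR-214 rose (0.55, adjusted p = 0.0182). The list median there was 0.12, against 0.1 over all 294 tested probes, of which 47 were called higher. The 6 summed to 0.736% and 0.795% of net Cy3 on the RQ arrays, 0.594% and 0.753% on the MI arrays and 0.477% and 0.615% on the WT arrays, and all 6 were above background on every array. The part of cell composition in the miR-29 values was not tested.

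Markers of other lineages were counted in the same fit. They are named after their values were seen. In RQ minus WT with loess, the calls were 3 of 10 stem-cell microRNAs (miR-294 at -1.51, miR-295 at -1.16 and miR-302d at -0.54), 1 of 4 blood microRNAs (miR-451 at -1.09), 2 of 5 muscle and heart microRNAs (miR-1 at -1.03 and miR-499 at -0.77) and 1 of 5 neural microRNAs (miR-153 at 0.38), beside 21.4% of all tested probes called in either direction. With median centring miR-302d (-0.54) and miR-499 (-0.87) were still called lower, whereas miR-294, miR-295, miR-451, miR-1 and miR-153 were not called. The calls added on that scale were all higher in RQ: miR-142-5p of blood (0.55), miR-206 of muscle (0.87), miR-128b (0.42) and miR-124a (0.77) of neurons and miR-122a of liver (1.03). Beside them 22.8% of all tested probes were called, 47 of the 294 higher and 20 lower. With loess miR-122a stood at -0.10 (adjusted p = 0.809), and it was not called with Cy3 alone. In MI minus WT with loess the calls were 3 of 10 stem-cell microRNAs (miR-302 at -1.79, miR-302d at -1.61 and miR-367 at -0.79) and 2 of 5 muscle and heart microRNAs (miR-206 at 1.49 and miR-499 at -1.05). Beside them 15.6% of all tested probes were called. All of these but miR-206 were called lower with median centring too, where 7.14% of tested probes were called lower. The stem-cell list made up 13.1% and 13.3% of net Cy3 on the RQ arrays, 11.9% and 13.7% on the MI arrays and 12.3% and 18.5% on the WT arrays. The liver list made up 0.128% and 0.132% on the RQ arrays and 0.0850% and 0.0904% on the WT arrays. The part of these lineages in the miR-29 values was not tested.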

How the data were processed

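Per the file headers, Agilent Feature Extraction 9.5.1.1 made the deposited scanner files, which give mean and local background intensity of each spot in both dyes, beside software-normalised signals and their log10 ratio. The deposited value table equalled minus that log10 ratio (largest difference 0), so it runs Cy3 over Cy5; it was converted to log2. Background was corrected with normexp (offset 50) and loess was run within each array, its curve drawn through mouse probes without outlier spots, in limma 3.58.1 under R 4.3.3. Outlier spots, 60 to 99 per array, were removed and the spots of a probe averaged. Tests took probes for which more than 0.5 of the spots passed the scanner's background test, in either dye, on 2 arrays or more. Groups were compared over 6 arrays by lmFit and eBayes, with Benjamini-Hochberg adjustment over 294 probes. The loess fit had 3 residual degrees of freedom and 2.99 prior ones, and the Cy3-alone fit leaned more on the prior. The number of arrays limits the precision. The named microRNAs were the 3 members, the 4 nearest profiles and, of each of the Myc, DNA methyltransferase and mesenchymal lists, the 2 tested members with the largest absolute RQ minus WT change. Members and lists were chosen with earlier results of these data known. The alternatives tried were other scalings, background, filter, outlier and loess settings, a replicate block, and leaving out each array.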

Additional observations from a re-analysis of the deposited data

How the results depend on the processing

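The number of calls moved by over 1.5 times in these cases, and the cause was not tested. From 63 calls in RQ minus WT, leaving out 1 array gave 5 to 60, with 5 without RQ replicate 1 and 40 without RQ replicate 2. From 46 in MI minus WT it gave 6 to 63, with 27 when either RQ array was left out or only the arrays of the 2 groups compared were used, 28 without WT replicate 1, 6 without MI replicate 1 and 19 without MI replicate 2. From 32 in RQ minus MI it gave 0 to 48, with 0 without either MI array or RQ replicate 2 (60, 47 and 58 at an unadjusted p under 0.05 in limma) and 1 without RQ replicate 1; bright-probe loess gave 10, no background subtraction 7, outlier spots kept 14, and a loess curve through outliers and non-mouse probes, chosen after seeing the data, 10. Median centring gave 67 calls in RQ minus WT, 38 in MI minus WT and 31 in RQ minus MI, but turned their split: 70.1% of calls were higher in RQ minus WT against 34.9% with loess, 44.7% against 58.7% in MI minus WT, and 61.3% against 28.1% in RQ minus MI. Bright-probe loess gave 23.3%, 40% and 40% higher in these comparisons, and the deposited values gave 28.1% in MI minus WT and 40.7% in RQ minus MI.

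For miR-29a, RQ minus WT was no longer called with median centring (-0.12), the deposited table (-0.70), no background subtraction (-1.22) and the added loess curve (-1.21); leaving out arrays gave -1.46 to -0.96. miR-29b, RQ minus WT, was called with Cy3 alone (-0.62), and leaving out arrays gave -1.05 to -0.56. miR-29c, RQ minus WT, turned sign with median centring (0.05), bright-probe loess (0.02) and without WT replicate 2 (0.24), with -0.48 at the other end. In MI minus WT, miR-29a was called with median centring (-0.48) and Cy3 alone (-0.66), within -0.98 to -0.47 over left-out arrays; miR-29b spanned -0.84 to -0.09 and miR-29c 0.15 to 0.88. In RQ minus MI, miR-29a turned with median centring (0.35) and Cy3 alone (0.05), within -0.74 to -0.23 over left-out arrays; miR-29b turned with median centring (0.17) and without MI replicate 2 (0.03), with -0.71 at the other end; miR-29c was called with only the 4 arrays compared (-0.63), within -0.76 to -0.50. The median of all tested probes in RQ minus WT moved from loess by -0.27 with Cy3 alone, -0.30 in the deposited table and -0.16 with bright-probe loess; in MI minus WT it moved by -0.12 and -0.16 with the first and second of these, and in RQ minus MI by 0.16 with median centring and -0.12 with Cy3 alone.

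Replicate numbers did not clearly pair the arrays: same-numbered arrays' deviations correlated at 0.18 for MI and WT, 0.12 for RQ and WT and 0.04 for RQ and MI over 294 probes. With replicate number as a block, miR-29b was called in RQ minus WT (-0.81, adjusted p = 0.0259) and miR-29a in MI minus WT (-0.72, adjusted p = 0.0236); the counts were 59, 39 and 38. The other member calls did not change under the block.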
